A study of Mus musculus with 21 samples.

Results

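Stra6l, Klri1, Dtx1 and Adam23 are 4 genes, of 54532 in the count table, that were read almost exclusively from the Jak2V617F libraries of a mouse bone marrow RNA-seq series. They were chosen because they lay far lower in Asxl1-/-Jak2V617F than in Jak2V617F, so their values in that comparison, and in every other comparison that uses the Jak2V617F or the Asxl1-/-Jak2V617F libraries, describe the choice and carry no test here. The choice had no numerical threshold. Among the 16262 genes tested, they held places 5 (Stra6l), 16 (Klri1), 30 (Dtx1) and 31 (Adam23) when genes were ordered by the size of the fall.

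The cells came from marrow of C57BL/6 mice, flushed from femur and tibia, freed of red cells and enriched on magnetic beads for c-kit (CD117), which blood stem and progenitor cells carry as their receptor for stem cell factor. There were 4 genotypes: WT (n = 3), Asxl1-/- (n = 2), Jak2V617F (n = 3) and Asxl1-/-Jak2V617F (n = 3). Jak2V617F is a constantly active mutant of the kinase Jak2 that drives myeloproliferative neoplasms, and Asxl1 encodes a chromatin regulator that is lost or truncated in myeloid malignancies. Age, and how and in which cells the alleles were made or expressed, are details the sources used here do not give, and the labels name no treatment.

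The 11 libraries held 16198011 to 19196283 counts. Kit lay between 218.8 and 338.3 CPM (counts scaled to library size) in all 11, and Asxl1, the targeted gene, was 93.0 ± 5.66 CPM in Asxl1-/- (SD, n = 2) against 162.3 ± 1.41 CPM in WT (n = 3). That difference was -0.80 ± 0.14 on the log2 scale (SE; adjusted p = 0.0042 by edgeR's quasi-likelihood test), and it did not pass without Asxl1-/- 1 (adjusted p = 0.071) or with a sex term (adjusted p = 0.136). In the double mutant Asxl1 lay at 96.3 ± 3.61 CPM against 156.6 ± 34.4 CPM with Jak2V617F alone, and Jak2, whose counts do not read the substitution, was 92.2 ± 5.64 and 125.9 ± 3.94 CPM there. On the first principal component, which held 51.5% of the variance, the 3 Jak2V617F libraries lay far from the other 8. Y-linked genes and Xist showed that Jak2V617F 2 and both Asxl1-/- libraries came from male cells and the other 8 from female cells. Only Jak2V617F held both sexes, so a sex term in the fit is set by Jak2V617F 2 against Jak2V617F 1 and 3. Such a term cannot separate sex from other differences of Jak2V617F 2. In these bulk libraries, fewer cells of a type and less RNA per cell cannot be told apart.

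All 4 genes encode proteins that act at the cell surface or on signals received there, and they come from 4 unrelated families. Stra6l encodes a membrane receptor related to Stra6 that binds retinol-binding protein and takes up retinol, the parent of retinoic acid. Klri1 encodes an inhibitory C-type lectin-like receptor of the natural killer gene complex, which reaches the surface paired with Klre1. Adam23 belongs to the ADAM family of membrane proteins but lacks protease activity, and binds Lgi1 and the integrin of Itgav and Itgb3. Dtx1 encodes Deltex, a ubiquitin ligase that binds Notch receptors and is itself a Notch target gene.

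In the mm10 genome, Stra6l (ENSMUSG00000028327) lies on the plus strand of chromosome 4, from 45848664 to 45887008. Klri1 (ENSMUSG00000067610) lies on the minus strand of chromosome 6, from 129697218 to 129717132. Dtx1 (ENSMUSG00000029603) lies on the minus strand of chromosome 5, from 120680202 to 120711927. Adam23 (ENSMUSG00000025964) lies on the plus strand of chromosome 1, from 63445891 to 63596276. The genes are thus on different chromosomes.

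Upstream sequences are shown because the 4 genes moved together while lying apart in the genome. They are from RefSeq (GRCm38.p6, the assembly also called mm10), 5′ to 3′ on the gene's strand, ending at the base before the deposited gene's first base. Capitals mark matches to CCNCNCCC, the core of Krüppel-like factor sites (KLF), or to the E-box CANNTG, each searched on both strands.
Adam23, chr1:63445641-63445890, plus strand: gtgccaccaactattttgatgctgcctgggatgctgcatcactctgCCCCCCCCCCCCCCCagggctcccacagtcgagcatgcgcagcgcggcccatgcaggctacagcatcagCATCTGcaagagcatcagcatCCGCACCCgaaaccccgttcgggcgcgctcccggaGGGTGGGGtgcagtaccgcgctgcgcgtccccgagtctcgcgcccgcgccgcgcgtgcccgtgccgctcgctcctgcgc
Klri1, chr6:129717133-129717382, minus strand: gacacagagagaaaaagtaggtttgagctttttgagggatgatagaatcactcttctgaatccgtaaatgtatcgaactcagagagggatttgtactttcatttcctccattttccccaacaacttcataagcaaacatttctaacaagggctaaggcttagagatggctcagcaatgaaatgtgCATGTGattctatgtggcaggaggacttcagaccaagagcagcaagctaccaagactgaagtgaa
Stra6l, chr4:45848566-45848663, plus strand: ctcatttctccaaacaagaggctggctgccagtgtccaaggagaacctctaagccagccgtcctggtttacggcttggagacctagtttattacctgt

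The upstream sequences had little in common. The 250 bases before the RefSeq start of Adam23 had a GC content of 70.4% and 27 CpG pairs, those of Klri1 41.6% and 2, against a median of 52.4% and 6 over 32851 mouse promoters. For Dtx1 the same window held 56.4% GC and 15 CpG pairs, and for the 2 RefSeq starts of Stra6l 56.4% and 57.2% GC with 4 and 3 CpG pairs. The RefSeq start of Dtx1 lies 258 bases inside the deposited gene, and those of Stra6l 152 and 283 bases inside, so the transcribed parts of these windows are not printed.

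None of the windows of the 4 genes held the letters AGATAA of GATA factors, TTCNNNGAA of STAT factors or TGGGAA of RBPJ, the DNA-binding partner of Notch, letters that 9.99%, 7.02% and 21.6% of all promoter windows of this length hold. The KLF letters, held by 45.9% of promoters, matched at 10 positions in Adam23, of which 8 overlap each other in a run of C, at 1 in Dtx1, at 4 for each start of Stra6l and at 0 in Klri1. The E-box letters, held by 66.2%, matched at 1 position in Adam23, 1 in Klri1, 0 in Dtx1, and 3 and 2 for the starts of Stra6l, where an E-box and a KLF match share 1 base. No searched motif was therefore present in all 4 genes. A match is a description of letters and was not tied to binding.

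Stra6l, the retinol uptake receptor, had 0 to 5 counts in each library outside Jak2V617F. Its counts were 238, 436 and 369 in the 3 Jak2V617F libraries (12.8, 21.4 and 19.5 CPM), 5, 5 and 0 in WT, 0 and 2 in Asxl1-/-, and 0, 0 and 1 in Asxl1-/-Jak2V617F. Every Jak2V617F library was above every other library, and no other library was above 0.282 CPM. For scale, 3 counts correspond to 0.147 to 0.183 CPM in these libraries.

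In summed counts, Stra6l was 93.9 times as high in Jak2V617F as in WT (95% exact interval 50.9 to 196) and 930 times as high as in Asxl1-/-Jak2V617F (166 to 36700). These intervals, and those given below for the other genes, cover counting error only, and the upper bound of the second is wide because it rests on 1 count. The fitted log2 differences were 6.50 ± 0.60 for Jak2V617F minus WT and -9.40 ± 0.79 for Asxl1-/-Jak2V617F minus Jak2V617F. The latter was -11.33 without Asxl1-/-Jak2V617F 3, the library with that count.

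Klri1, the lectin-like receptor, was the lowest of the 4 in CPM. Its counts were 123, 160 and 203 in Jak2V617F (6.60, 7.85 and 10.7 CPM), 4, 4 and 7 in WT, 0 and 1 in Asxl1-/-, and 1, 3 and 0 in Asxl1-/-Jak2V617F. The Jak2V617F libraries again did not overlap the others, of which the highest was WT 3 at 0.422 CPM.

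The ratio of Klri1 in Jak2V617F to WT was 29.2 (17.5 to 52.5), and to Asxl1-/-Jak2V617F 108 (42.0 to 399). The fitted log2 differences were 4.83 ± 0.49 and -6.64 ± 0.58, and the second was -7.87 without Asxl1-/-Jak2V617F 2.

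Adam23, the ADAM protein without protease activity, had the highest CPM. Its counts were 395, 934 and 933 in Jak2V617F (21.2, 45.8 and 49.2 CPM), 2, 8 and 1 in WT, 1 and 6 in Asxl1-/-, and 16, 13 and 7 in Asxl1-/-Jak2V617F. Of the 4 genes it was the one whose second-highest genotype was Asxl1-/-Jak2V617F, at 0.690 ± 0.240 CPM (n = 3) against 0.208 ± 0.212 CPM in WT (n = 3).

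Adam23 was 185 times as high in Jak2V617F as in WT (103 to 372) and 56.0 times as high as in Asxl1-/-Jak2V617F (40.3 to 80.2). The log2 differences were 7.48 ± 0.60 and -5.79 ± 0.52. The ratio of Asxl1-/-Jak2V617F to WT was 3.31 (1.65 to 7.20), a log2 difference of 1.69 ± 0.73, and without WT 2, which holds 8 of the 11 WT counts, it was 2.90.

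Dtx1, the Notch regulator, was read in all 11 libraries. Its counts were 210, 563 and 236 in Jak2V617F (11.3, 27.6 and 12.45 CPM), 15, 19 and 7 in WT, 19 and 16 in Asxl1-/-, and 3, 3 and 9 in Asxl1-/-Jak2V617F. The groups again did not overlap between Jak2V617F and the rest, but Jak2V617F 2, the male library, was 2.45 times as high as Jak2V617F 1.

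Dtx1 was 22.2 times as high in Jak2V617F as in WT (16.2 to 31.1) and 59.9 times as high as in Asxl1-/-Jak2V617F (36.2 to 108). The log2 differences were 4.44 ± 0.48 and -5.84 ± 0.54. With a sex term they were 3.91 and -5.31, and without Asxl1-/-Jak2V617F 3 the second was -6.60.

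**Figure D1:**
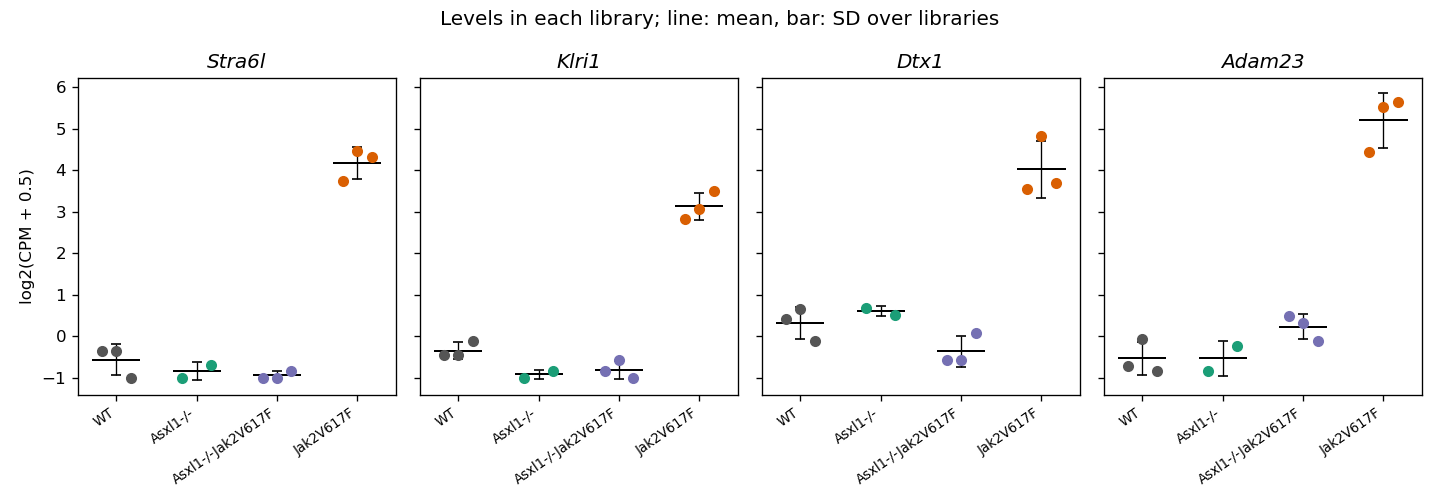
Level of each of the 4 genes in every library, as log2(CPM + 0.5), by genotype; points are libraries, the line is the mean and the bar the SD (n = 3, and n = 2 for Asxl1-/-). In each panel the 3 Jak2V617F points lie above all 8 others, with Jak2V617F 1 the lowest of the 3.

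The absence of overlap held for all 4 genes, and 16.4% of all genes tested had every Jak2V617F library above every other library. Since the genes were chosen on this contrast, that share is background and nothing is read from the count. All 4 passed the filter on low counts, but Stra6l and Klri1 passed it through the Jak2V617F libraries alone: with those left out, only Dtx1 and Adam23 pass.

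The order of the 4 genes within Jak2V617F depended on the scale. Per kilobase of exon, Klri1 was highest at 10.01 ± 2.51 CPM per kb (SD, n = 3), followed by Dtx1 at 3.25 ± 1.73, Adam23 at 2.16 ± 0.854 and Stra6l at 1.87 ± 0.473. Klri1 stood above the others by more than its SD, while the ranges of mean ± SD of the other 3 overlapped. In CPM, which does not allow for exon length, the order was Adam23, Stra6l, Dtx1, Klri1. Even where they were highest these were moderate levels: their places among the 16262 genes tested in the same libraries, per kilobase, were at percentiles 67.7 (Klri1), 45.6 (Dtx1), 39.2 (Adam23) and 37.1 (Stra6l).

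The 3 Jak2V617F libraries did not carry equal amounts. Jak2V617F 1 was the lowest for all 4 genes, and the highest library was 1.67 times (Stra6l), 1.62 times (Klri1), 2.45 times (Dtx1) and 2.32 times (Adam23) as high. The highest was Jak2V617F 2 for Stra6l and Dtx1 and Jak2V617F 3 for Klri1 and Adam23. Over all 11 libraries, Pearson's r between pairs of the genes (log2 CPM) was 0.855 to 0.962, a figure set mostly by the gap between Jak2V617F and the rest. Over the 8 other libraries, where counts are near 0, r ran from -0.585 to 0.623.

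Asxl1-/- against WT, which asks what loss of Asxl1 does without Jak2V617F, is the comparison that the choice of genes did not use. By edgeR's quasi-likelihood test with Benjamini-Hochberg adjustment, 0 of the 4 genes passed, and 1, Klri1, had an unadjusted p under 0.05. DESeq2 gave the same numbers, 0 and 1. The share called among all genes tested was 22.5%, but nothing is read from the 0 beside it: Stra6l and Klri1 entered this test only because the Jak2V617F libraries carried them past the filter, and with the compared genotypes alone the filter removes Stra6l, Klri1 and Adam23. Counts this low leave little room for a call.

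In that comparison Klri1 had 1 count over both Asxl1-/- libraries and 15 over the 3 WT libraries, a ratio of 0.101 (0.00241 to 0.659). Its log2 difference was -3.03 ± 1.01 (adjusted p = 0.0509 by edgeR). Over the alternatives the adjusted p ran from 0.0318, with no filter on low counts, to 0.287. Klri1 and Stra6l entered this test only through the Jak2V617F libraries. Adam23 entered it only through libraries of Jak2V617F or Asxl1-/-Jak2V617F, which the choice also used. No result is read from the p-values of Klri1, Stra6l and Adam23. Stra6l was -1.60 ± 1.18 (adjusted p = 0.353 by edgeR), Dtx1 0.38 ± 0.56 (adjusted p = 0.66) and Adam23 -0.04 ± 1.01 (adjusted p = 0.981). These values moved widely with 1 library left out: Stra6l ran from -4.82 without Asxl1-/- 2 to -0.67 without Asxl1-/- 1, Klri1 from -5.40 to -2.17 without the same libraries, Dtx1 from 0.09 without WT 3 to 0.67 without WT 2, and Adam23 from -1.73 without Asxl1-/- 2 to 1.162 without WT 2. The counting intervals of the ratios of Stra6l, Dtx1 and Adam23 were 0.0324 to 1.43, 0.802 to 2.09 and 0.318 to 2.73. They leave out the spread between libraries and do not say how small a change the test could have found. Both Asxl1-/- libraries were male and all WT libraries female. The part of sex in these values was not tested apart from the sex term, which is set by Jak2V617F 2 alone.

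**Figure D2:**
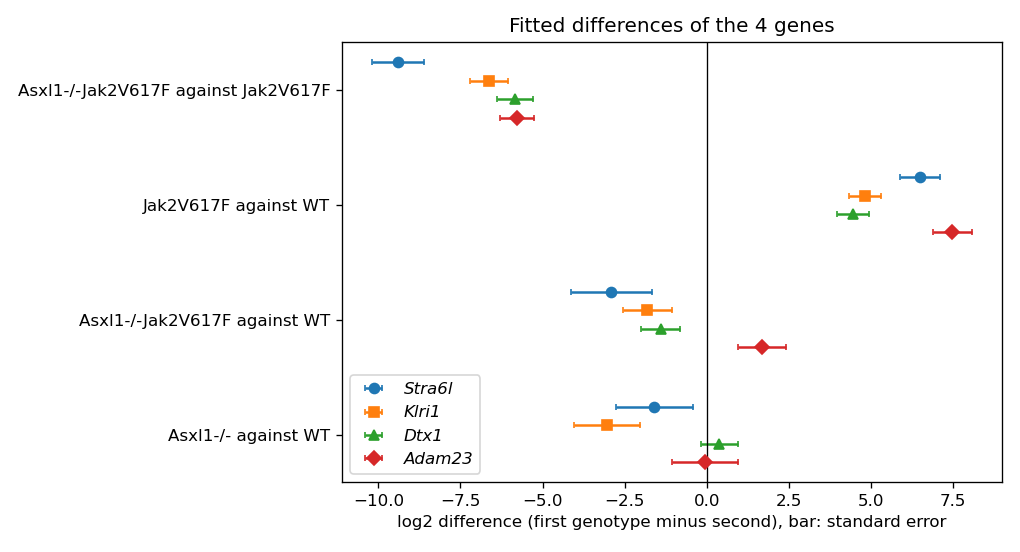
Log2 difference of each gene in 4 comparisons, with bars for the SE. The Jak2V617F minus WT values run from 4.44 to 7.48 and the Asxl1-/-Jak2V617F minus Jak2V617F values from -9.40 to -5.79, while the values for Asxl1-/- minus WT lie between -3.03 and 0.38.

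Asxl1-/-Jak2V617F against WT shares libraries with the choice and is given as a description. Summed counts of Stra6l, Klri1 and Dtx1 were lower in Asxl1-/-Jak2V617F than in WT, with ratios of 0.101 (0.00233 to 0.71), 0.269 (0.0651 to 0.846) and 0.37 (0.19 to 0.682). Adam23 was the exception, as given above. The libraries of both genotypes overlapped for Stra6l, where WT 3 and 2 Asxl1-/-Jak2V617F libraries had 0 counts, and for Dtx1, where WT 3 at 0.422 CPM was under Asxl1-/-Jak2V617F 3 at 0.550 CPM, and for Adam23, where WT 2 at 0.451 CPM was above Asxl1-/-Jak2V617F 3 at 0.427 CPM. They did not overlap for Klri1, but no Klri1 count in either genotype was above 7.

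Turning to the pathways around each gene, the lists below leave out the 4 genes themselves. In Asxl1-/-Jak2V617F against Jak2V617F, 44.3% of all genes tested changed (24.5% higher, 19.8% lower), and in Jak2V617F against WT 53.5% did (24.4% higher, 29.2% lower). The median log2 difference of all genes was -0.007 and -0.053. Both comparisons share the Jak2V617F libraries, so their values for a gene are set side by side and are not independent.

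In the retinoid pathway, the context of Stra6l, 17 of 32 genes were tested, and 4 rose and 4 fell in Asxl1-/-Jak2V617F against Jak2V617F (median -0.19). The count of 4 that fell was 2 with a sex term and without Asxl1-/-Jak2V617F 2, Jak2V617F 2 or Jak2V617F 3. In Jak2V617F against WT 5 rose and 7 fell (median -0.24). Both shares that rose or fell lie near those of all genes in the first comparison.

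Aldh1a1, which oxidises retinal to retinoic acid, followed the direction of Stra6l. It lay at 106 to 171 CPM in Jak2V617F and at 28.6 to 60.0 CPM in the other libraries, with no overlap. Its log2 difference between Asxl1-/-Jak2V617F and Jak2V617F was -1.57 ± 0.27 (adjusted p = 0.00115 by edgeR) and was 1.42 ± 0.27 higher in Jak2V617F than in WT (adjusted p = 0.00143). Enzymes that interconvert retinol and retinal, the step before, went both ways. Rdh12 rose by 2.73 ± 0.35, Dhrs3 by 1.14 ± 0.20 and Dhrs9 by 2.09 ± 0.45 (adjusted p = 0.000153, 0.000732 and 0.00328 by edgeR). The same 3 genes were lower in Jak2V617F than in WT, by -3.12, -1.29 and -2.35. Dhrs4 had the direction of Stra6l, at -0.47 ± 0.13 (adjusted p = 0.0098 by edgeR) in the first comparison and 0.74 ± 0.13 (adjusted p = 0.000462) in the second. Rdh10 and Rdh13 also had it, at -0.43 ± 0.15 and -0.52 ± 0.18 (adjusted p = 0.0361 and 0.0391) and at 0.60 ± 0.15 and 0.97 ± 0.19 (adjusted p = 0.00574 and 0.000963). The calls of these last genes in the first comparison were lost in turn without Asxl1-/-Jak2V617F 2 or any Jak2V617F library (Rdh10, adjusted p = 0.0537 to 0.132) and without any Asxl1-/-Jak2V617F library or Jak2V617F 2 or 3 (Rdh13, 0.0582 to 0.121), and both with a sex term (0.0754 and 0.0778). That of Rdh10 was also lost with no filter (0.0697) and with the compared genotypes alone (0.0506). Rdh11 was higher in Jak2V617F than in WT by 0.53 ± 0.09 (adjusted p = 0.000577) and was -0.20 ± 0.09 in the first comparison (adjusted p = 0.114).

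The nearest relative of Stra6l and its ligand were hardly read. Stra6 had 0 counts in all 11 libraries, and Rbp4, the retinol-binding protein of plasma, had 5 in all, none of them in Jak2V617F. Rara, a retinoic acid receptor, did not pass in either comparison, at -0.19 ± 0.26 (adjusted p = 0.603 by edgeR) and -0.27 (adjusted p = 0.408).

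Among killer cell lectin-like receptors, the family of Klri1, 19 of the 25 genes in the table were tested. In Asxl1-/-Jak2V617F against Jak2V617F 10 fell and 2 rose (median -1.34), and in Jak2V617F against WT 6 rose and 3 fell (median 0.80). Over the alternatives the number that fell in the first comparison was 8 to 11, and the number that rose 1 to 3. In Asxl1-/- against WT 0 of the 19 changed by edgeR, beside 22.5% of all genes tested. Nothing is read from that 0, with n = 2 for Asxl1-/- and levels as low as 0.542 CPM (Klri2) outside Jak2V617F.

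Klri2, the activating counterpart of Klri1 and its neighbour on chromosome 6, lay at 3.48 to 5.10 CPM in Jak2V617F and at 0.542 to 1.51 CPM elsewhere. It fell by 2.10 ± 0.36 in the double mutant against Jak2V617F and was 2.11 ± 0.36 higher in Jak2V617F than in WT (adjusted p = 0.000584 and 0.000405 by edgeR). Klre1, the partner chain of both, fell by 1.90 ± 0.36 (adjusted p = 0.00123). It lay at 2.48 to 3.97 CPM in Jak2V617F and at 0.617 to 2.01 CPM elsewhere, so the partner of Klri1 was read in every genotype.

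Klre1 was also higher in Jak2V617F than in WT, by 0.97 ± 0.34 (adjusted p = 0.0304 by edgeR). That call was lost without Jak2V617F 2, WT 2 or WT 3 (adjusted p = 0.098, 0.0536 and 0.11), with a sex term (0.114) and with no filter (0.0526). Klrd1, the partner chain of the Klrc receptors, fell by 2.45 ± 0.35 and was 1.98 ± 0.34 higher in Jak2V617F than in WT (adjusted p = 0.000159 and 0.000417). Klrk1, the activating receptor also called NKG2D, fell by 1.06 ± 0.20 and was 0.62 ± 0.19 higher (adjusted p = 0.00104 and 0.0183), and the latter did not pass without Jak2V617F 3 (adjusted p = 0.0519).

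The 2 receptors that rose in Asxl1-/-Jak2V617F against Jak2V617F were Klrb1f, by 0.88 ± 0.23 (adjusted p = 0.0089 by edgeR), and Klra2, by 2.38 ± 0.79 (adjusted p = 0.0341). The call of Klra2 was lost without any of the 3 Jak2V617F libraries or without Asxl1-/-Jak2V617F 1 or 3 (adjusted p = 0.0672 to 0.109), with no filter (0.114) and with a sex term (0.0685). Members of this family share sequence, and the sources used here do not say how reads that match several genes were counted, so the split among them is uncertain.

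Around Adam23, 13 of 18 ADAM family and partner genes were tested. In Asxl1-/-Jak2V617F against Jak2V617F 4 rose and 5 fell (median 0.19), and in Jak2V617F against WT 3 rose and 5 fell (median -0.26). Adam22 and Adam11, the closest relatives of Adam23 and likewise without protease activity, fell by 1.88 ± 0.25 and 1.98 ± 0.30 (adjusted p = 9.32e-05 and 0.000256 by edgeR). Adam11 was 1.57 ± 0.29 higher in Jak2V617F than in WT, while Adam22 was 0.54 ± 0.23 (adjusted p = 0.0717) and passed there only without Jak2V617F 1 (0.0382).

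The proteases Adam15 and Adam9 rose by 2.69 ± 0.26 and 1.17 ± 0.14 (adjusted p = 1.61e-05 and 4.92e-05 by edgeR) and were lower in Jak2V617F than in WT, by -2.63 and -0.90. The integrin chains that bind Adam23 moved opposite to it. Itgav rose by 1.02 ± 0.19 and Itgb3 by 1.46 ± 0.23 (adjusted p = 0.00102 and 0.000457), and both were lower in Jak2V617F than in WT, by -1.26 and -2.37. The ligands were barely read: Lgi1 had 7 counts in all 11 libraries and 0 in Jak2V617F, and Lgi4 had 2.

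In the Notch pathway, the context of Dtx1, 40 of 43 genes were tested. In Asxl1-/-Jak2V617F against Jak2V617F 12 rose and 10 fell (median 0.09), and in Jak2V617F against WT 8 rose and 16 fell (median -0.16). Receptors did not move together. Notch1 lay at 9.71 to 23.1 CPM in Jak2V617F and at 86.4 to 129.5 CPM elsewhere, with a log2 difference of 2.52 ± 0.25 in Asxl1-/-Jak2V617F against Jak2V617F (adjusted p = 3.44e-05 by edgeR) and -2.82 ± 0.26 in Jak2V617F against WT.

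Notch4 went the other way, falling by 2.41 ± 0.32 (adjusted p = 0.000111 by edgeR) and standing 1.61 ± 0.31 higher in Jak2V617F than in WT. Notch2 fell by 0.38 ± 0.13 (adjusted p = 0.0294), a call lost without Asxl1-/-Jak2V617F 1 or 2 or Jak2V617F 1 or 2 (adjusted p = 0.0754 to 0.097) and with a sex term (0.0923), and was 0.13 ± 0.13 in Jak2V617F against WT (adjusted p = 0.416). Rbpj, through which Notch acts on DNA, did not pass in either comparison, at 0.08 ± 0.08 and -0.07 (adjusted p = 0.457 and 0.484).

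Notch target genes went both ways. Nrarp, a target that limits Notch signalling, lay at 6.49 to 6.96 CPM in Jak2V617F and at 0.393 to 1.73 CPM elsewhere, falling by 3.46 ± 0.36 (adjusted p = 1.55e-05 by edgeR). Hes1, a repressor and classical target, lay at 7.35 to 12.1 CPM against 0.786 to 4.997 CPM, falling by 2.65 ± 0.44 (adjusted p = 0.000516). Neither overlapped the other libraries, and both were higher in Jak2V617F than in WT, by 2.52 ± 0.34 and 2.18 ± 0.43 (adjusted p = 7.3e-05 and 0.00116).

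Among the other Hes and Hey genes, Heyl, Hes6 and Hes5 were lower in Jak2V617F than in WT. The differences were -4.64 ± 0.74 for Heyl (adjusted p = 0.000263 by edgeR) and -0.60 ± 0.13 for Hes6 (adjusted p = 0.00187). Hes5, with 8 counts over the Jak2V617F libraries and 36 over WT, was lower by -2.27 ± 0.81 (adjusted p = 0.0337). The call of Hes5 was lost without Jak2V617F 1 or 3 or WT 1 or 2 (adjusted p = 0.052 to 0.102) and by DESeq2 (0.0553). Hey1 was 0.99 ± 0.53 in Jak2V617F against WT (adjusted p = 0.136 by edgeR). In Asxl1-/-Jak2V617F against Jak2V617F it had the direction of Dtx1, at -2.11 ± 0.59 (adjusted p = 0.0129). Heyl and Hes6 went the other way there, at 2.90 ± 0.80 and 0.55 ± 0.13 (adjusted p = 0.0119 and 0.00421). The call of Heyl was lost without Asxl1-/-Jak2V617F 3 (0.0547). Hes5 did not pass there, at -0.76 ± 1.10 (adjusted p = 0.608).

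The fringe enzymes, which add sugar to Notch receptors, also differed. Lfng fell by 1.04 ± 0.12 in Asxl1-/-Jak2V617F against Jak2V617F (adjusted p = 2.72e-05 by edgeR) and was 1.30 ± 0.12 higher in Jak2V617F than in WT, and Rfng fell by 0.96 ± 0.12 and was 0.75 ± 0.12 higher, while Mfng rose by 0.75 ± 0.14 and was lower in Jak2V617F than in WT by -0.76 ± 0.14. Dtx4, a relative of Dtx1, had the opposite pattern to it. It lay at 7.44 to 9.12 CPM in Jak2V617F and at 69.9 to 118 CPM elsewhere, with log2 differences of 3.64 ± 0.19 (adjusted p = 2.24e-07) and -3.20 ± 0.19.

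**Figure D3:**
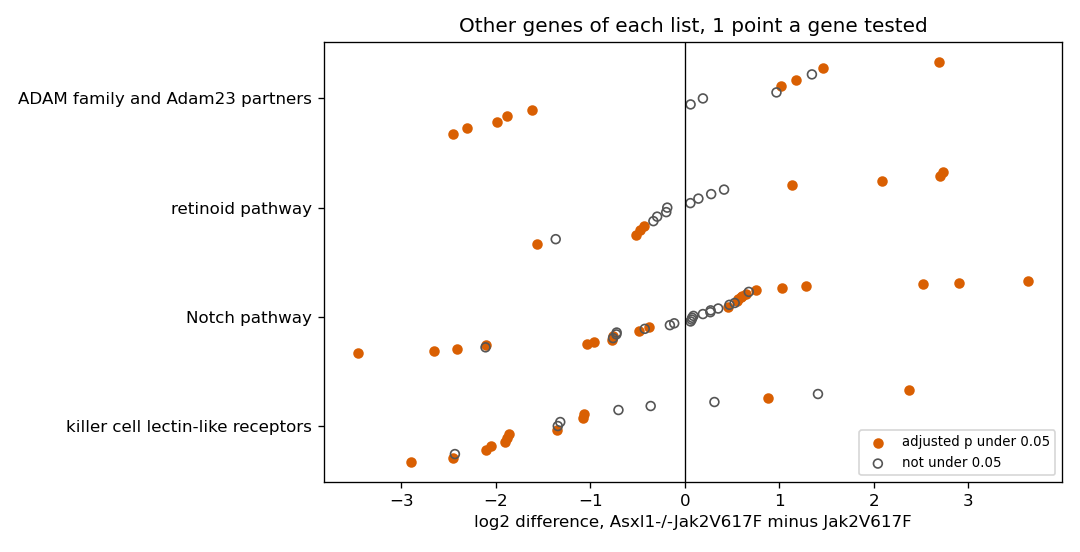
Log2 difference, Asxl1-/-Jak2V617F minus Jak2V617F, of every tested gene of the 4 lists other than the 4 genes themselves; filled points have an adjusted p under 0.05. Lectin-like receptors lie mostly below 0 (10 of 19 lower, 2 higher), while the other lists have points on both sides.

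How many genes share this sharp pattern was measured by the ratio of the lowest Jak2V617F library to the highest of the 8 others (CPM + 0.5 in both). Of 10330 protein-coding genes with 2 CPM or more in the lowest Jak2V617F library, 2262 (21.9%) had a ratio above 1, 35 (0.339%) a ratio of 4 or more and 4 a ratio of 10 or more. With an offset of 1 CPM the last counts were 24 and 3. This measure uses the libraries by which the genes were chosen, so their places in it are a description: Stra6l was at place 1 with a ratio of 17, Adam23 at 2 with 15.5, Klri1 at 7 with 7.70 and Dtx1 at 10 with 7.32.

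The other 6 genes of the first 10 were Dnase1l3, Tlr11, Apol7c, Anpep, Fndc7 and Havcr2. Dnase1l3, a secreted DNase, lay at 32.5 to 62.5 CPM in Jak2V617F and at no more than 2.29 CPM elsewhere, a ratio of 11.8. Tlr11, a Toll-like receptor, lay at 19.2 to 22.5 CPM against at most 1.18 CPM, a ratio of 11.7. Apol7c, of the apolipoprotein L family, ran from 5.80 to 27.1 CPM among the Jak2V617F libraries, against at most 0.241 CPM. Anpep, a surface aminopeptidase, and Havcr2, an inhibitory receptor also called Tim-3, had ratios of 7.74 and 7.53, and Fndc7 of 7.66.

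**Figure D4:**
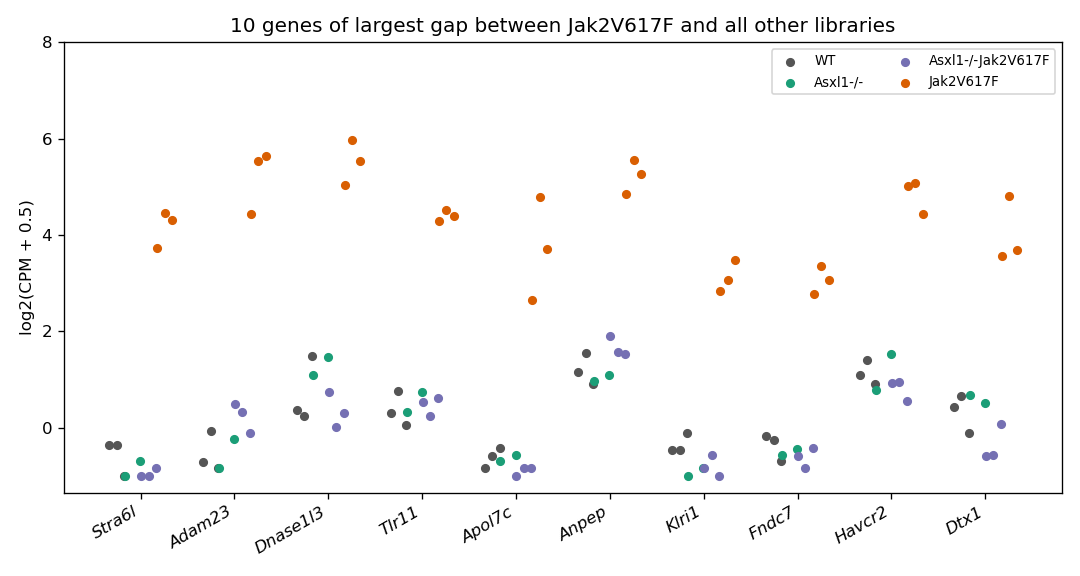
Level of the 10 genes with the highest ratio of the lowest Jak2V617F library to the highest other library, as log2(CPM + 0.5), in each of the 11 libraries. Stra6l, Adam23, Klri1 and Dtx1 are among them, at ratios of 7.32 to 17, and all 10 are high in the 3 Jak2V617F libraries only.

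The genes most like each of the 4 across libraries were taken by Pearson's r of log2 CPM over the 11 libraries, a value again set mostly by the gap between Jak2V617F and the rest. For Adam23 they were Itgax (r = 0.995), Anpep (0.990), Ciita (0.990), Xcr1 (0.989) and Sept3 (0.988), and all 5 stayed the closest when any Jak2V617F library was left out. Itgax, the integrin CD11c of dendritic cells, lay at 56.7 to 98.4 CPM in Jak2V617F and at 3.85 to 11.6 CPM elsewhere. Ciita, the master regulator of MHC class II genes, lay at 72.8 to 135 CPM against 6.09 to 17.7 CPM. Xcr1, the chemokine receptor of cross-presenting dendritic cells, lay at 14.1 to 29.2 CPM against 0.482 to 2.08 CPM.

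For Stra6l the closest were Fndc7 (r = 0.994), Ppp1r14a (0.984), Tlr11 (0.981), Rab30 (0.980) and Havcr2 (0.978), of which 4 stayed when any Jak2V617F library was left out. For Dtx1 they were H2-DMb2 (0.978), which helps load MHC class II molecules, D3Ertd254e (0.977), Pianp (0.974), Dexi (0.970) and Fndc7 (0.969), and 2 or 3 stayed. For Klri1 they were Mast4 (0.980), Zfp317 (0.976), Eri2 (0.976), Nfatc2ip (0.975) and Yae1d1 (0.974), of which only 1 stayed without Jak2V617F 3 and 4 without either other library. Fndc7 was on the lists of both Stra6l and Dtx1.

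Of the genes next to the 4, some had part of their pattern. Beside Stra6l, Igfbpl1 had 0 counts in every library, and Ccdc180, at 3295 bases, lay at 0.736 to 0.859 CPM in Jak2V617F and 0.671 to 1.75 CPM elsewhere. Beside Adam23, the nearest protein-coding genes, Zdbf2 and Gm39653, had 0 counts in Jak2V617F. Beside Klri1, Klri2 at 11909 bases was also high in Jak2V617F without overlap, as given above. Klrc1 at 18245 bases fell by 1.89 ± 0.40 in Asxl1-/-Jak2V617F against Jak2V617F (adjusted p = 0.00262 by edgeR). Its 1.64 to 3.97 CPM in Jak2V617F overlapped the 0.505 to 2.65 CPM elsewhere. In Jak2V617F against WT Klrc1 did not pass, at 0.254 ± 0.369 (adjusted p = 0.586 by edgeR).

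Beside Dtx1, Rasal1 ends 605 bases away on the opposite strand and lay at 1.72 to 2.70 CPM in Jak2V617F against 0.561 to 1.79 CPM. It fell by 1.5 ± 0.367 in Asxl1-/-Jak2V617F against Jak2V617F (adjusted p = 0.006 by edgeR). In Jak2V617F against WT Rasal1 did not pass, at 0.688 ± 0.349 (adjusted p = 0.117 by edgeR). Oas2, an interferon-induced gene on the other side, went against Dtx1, at 2.36 to 12.1 CPM in Jak2V617F and 15.8 to 222 CPM elsewhere. It was -3.68 ± 0.999 in Jak2V617F against WT (adjusted p = 0.0153 by edgeR). In Asxl1-/-Jak2V617F against Jak2V617F Oas2 did not pass, at 1.94 ± 0.961 (adjusted p = 0.141 by edgeR). A small nuclear RNA gene, Gm22281, lies within Adam23 on the other strand, from 63575488 to 63575590, and was read at 0.422 to 0.644 CPM in Jak2V617F and at 0 elsewhere. The sources used here do not give the strand setting of the counting, so reads of Gm22281 and Adam23 cannot be told apart.

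Sums of the markers of several cell types moved with the 4 genes. The 10 dendritic cell markers summed to 2192 to 3009 CPM in Jak2V617F, against 287.8 to 431.2 in Asxl1-/-Jak2V617F, 369.9 to 477.5 in Asxl1-/- and 233.3 to 393.1 in WT. The list includes Cd74, H2-Ab1 and H2-Aa, of MHC class II presentation. Xcr1 gave only 14.1 to 29.2 CPM of the sum in Jak2V617F. Of the 10 markers, 8 fell in Asxl1-/-Jak2V617F against Jak2V617F, beside 19.8% of all genes tested. In Jak2V617F against WT 8 were higher, beside 24.4% of all genes tested. None was at 0 in any genotype. Xcr1 fell by 3.78 ± 0.35, Clec9a, a receptor for dead cells on dendritic cells, by 3.32 ± 0.28 and Batf3, their transcription factor, by 2.12 ± 0.29 (adjusted p = 6.38e-06, 3.77e-06 and 0.000135 by edgeR). The part of dendritic cells in the levels of Stra6l, Klri1, Dtx1 and Adam23 was not tested.

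The 14 erythroid markers summed to 8215 to 9728 CPM in Jak2V617F against 2048 to 4423 CPM in the other libraries. Of them, 13 fell in Asxl1-/-Jak2V617F against Jak2V617F (10 to 13 over the alternatives), beside 19.8% of all genes tested. The 11 NK cell markers, which bear on Klri1, summed to 51.3 to 62.2 CPM in Jak2V617F against 19.95 to 44.7 CPM elsewhere. Klrb1c, Klrd1 and Klrk1 are also among the lectin-like receptors above, and Klrd1 and Klrk1 were called lower in both lists. The NK values therefore partly repeat those of that family. In Asxl1-/-Jak2V617F against Jak2V617F 6 of the 11 NK markers were lower (4 to 8 over the alternatives) and 1 higher, beside 19.8% of all genes tested that were lower. In Jak2V617F against WT only 3 were higher (1 to 5) and 0 lower, beside 24.4% of all genes tested that were higher. The 13 T cell markers summed to 47.0 to 116.3 CPM against 18.2 to 42.1 CPM. In Asxl1-/-Jak2V617F against Jak2V617F 10 of them were lower (7 to 11 over the alternatives), beside 19.8% of all genes tested. In Jak2V617F against WT 5 were higher (3 to 7), beside 24.4% of all genes tested. Granulocyte markers went the other way, at 2549 to 5597 CPM against 40460 to 67930 CPM, and B cell markers overlapped, at 94.5 to 311.8 CPM against 29.7 to 291.9 CPM. The sum for type 2 innate lymphoid cells was also higher in every Jak2V617F library than elsewhere (70.8 to 99.9 against 35.6 to 48.2 CPM). Only 3 of its 7 markers were tested. Of these, 1 fell in Asxl1-/-Jak2V617F against Jak2V617F, and in Jak2V617F against WT 1 was higher and 1 lower. Sums were lower in every Jak2V617F library than elsewhere for megakaryocytes (53.4 to 59.0 against 126.6 to 210.2 CPM), mast cells and basophils (70.8 to 99.0 against 297.7 to 491.3 CPM) and c-kit+ progenitors (1191 to 1265 against 1457 to 1718 CPM). Those of plasma cells overlapped (208.5 to 598.9 against 243.4 to 382 CPM). In the innate lymphoid list, 2 markers were at 0 across Jak2V617F and 2 across WT, with Il5 at 0 counts throughout. No other list had a marker at 0 across a genotype, and the part of these cell types in the levels of the 4 genes was not tested.

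**Figure D5:**
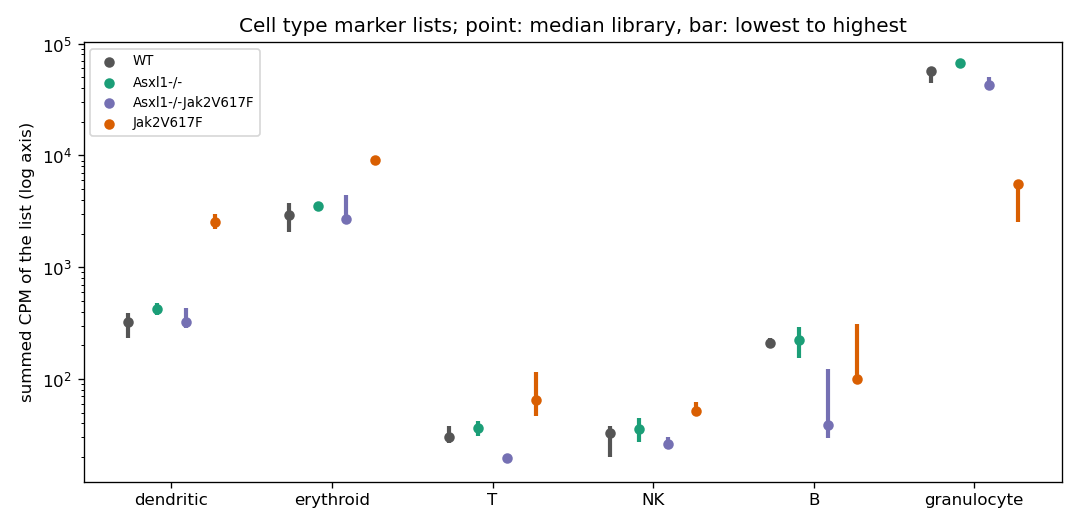
Summed CPM (log axis) of the markers of 6 cell types by genotype; points are medians over libraries and bars run from the lowest to the highest library. Dendritic, erythroid, NK and T cell sums are highest in Jak2V617F, granulocyte sums are lowest there, and B cell sums overlap between Jak2V617F and the rest.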

How the data were processed

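RNA was sequenced from c-kit+ marrow cells in 11 of the 21 samples of the series. The other 10, on chromatin, were not analysed here. What the authors deposited for RNA is a table of raw counts per gene. Per the submitters' processing notes, tools included featureCounts 1.5.0-p3 and HISAT2 2.0.5, with genome mm10. The sources used here give neither the strand setting nor the annotation release.

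A genotype factor was fitted over all 11 libraries in edgeR 4.0.16 (R 4.3.3): filterByExpr, TMM scaling and the robust quasi-likelihood test, with Benjamini-Hochberg adjustment over 16262 genes and a threshold of 0.05. "Rose", "fell" and "changed" mean an adjusted p under that threshold. The common biological coefficient of variation was 19.7%. SEs are the log2 difference over the square root of F. Fitted differences use a prior count of 0.125, so those of genes near 0 counts depend on it. Likeness used log2 CPM with a prior count of 2. The fit was tested on simulated counts.

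The variance between replicates was 7.75 to 33.1 times that of sampling noise (chi-square per degree of freedom), and each replicate was kept as a sample. Whether they are separate animals is not in the labels, and p-values then measure only how far these samples spread, which may be technical.

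The 4 genes and all lists were chosen with earlier results of these data known. Beside the 4 genes, the text names up to 4 genes of each pathway list with the smallest adjusted p in Asxl1-/-Jak2V617F against Jak2V617F, listed direct partners, the 5 genes most like each, the 10 of highest ratio, and nearest neighbours. A gene that this rule takes is not reported here. Notch4, the other Hes, Hey and fringe genes, Rdh10, Rdh11, Rdh13, Dhrs4, Klra2, Klrb1f, Clec9a and Batf3 were named after their values were seen. Alternatives were DESeq2 1.42.0, RLE scaling, no filter, a filter at 1 CPM in at least 3 libraries, the compared groups alone, a replicate block, a sex term and leaving out each library.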

Additional observations from a re-analysis of the deposited data

Results flagged for a closer look

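The difference in Dtx1 between libraries with and without Jak2V617F went opposite ways with and without Asxl1. Each Jak2V617F library was above each WT library, with mean CPM 22 times as high, while each Asxl1-/-Jak2V617F library was below each Asxl1-/- library, with a ratio of 0.291. The second comparison rests on 3, 3 and 9 counts against 19 and 16, the contrast between these differences was not tested, and Dtx1 was chosen on libraries that enter it. Both Asxl1-/- libraries were male and all Asxl1-/-Jak2V617F libraries female, so the second comparison also differs in sex. With a sex term, the log2 difference of Dtx1 in Asxl1-/- against WT went from 0.38 to -0.84. That in Asxl1-/-Jak2V617F against WT stayed at -1.40. The sex term is set by Jak2V617F 2, the male library of the only genotype with both sexes. The part of sex was not tested apart from that term.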

How the results depend on the processing

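Each of the 4 genes kept its direction in Asxl1-/-Jak2V617F against Jak2V617F, in Jak2V617F against WT and in Asxl1-/-Jak2V617F against WT under all alternatives that gave a value. With 1 library left out, Asxl1-/-Jak2V617F minus Jak2V617F ran from -11.33 to -8.94 for Stra6l, -7.87 to -6.12 for Klri1, -6.60 to -5.32 for Dtx1 and -6.09 to -5.55 for Adam23. Jak2V617F minus WT for Adam23 ran from 7.07 to 8.69, the latter without WT 2. Asxl1-/-Jak2V617F minus WT ran from -4.83 to -2.42 (Stra6l), -3.00 to -1.29 (Klri1), -2.15 to -1.10 (Dtx1) and 1.28 to 2.90 (Adam23). In Asxl1-/- against WT, Klri1 passed with no filter (-3.03, adjusted p = 0.0318 by edgeR). That call rests on 1 count against 15, and no result is read from it. In the same comparison Dtx1 turned to -0.84 (adjusted p = 0.433 by edgeR) with a sex term. That term, here and in the counts below, is set by Jak2V617F 2 alone and cannot separate sex from other differences of that library. Adam23 ran from -1.73 to 1.162, turning to 0.72 (0.738) without Asxl1-/- 1 and to 1.162 (0.545) without WT 2. The cause was not tested. The compared groups alone gave no value there for Stra6l, Klri1 and Adam23, which the filter removed. Genes called in Asxl1-/- against WT went from 3664 to 502 with a sex term, of which 18.7% were higher, and to 288, 1407, 1929 and 2182 without Asxl1-/- 1, Asxl1-/- 2, WT 2 or WT 3, and to 4376 without WT 1. In Asxl1-/-Jak2V617F against WT 2449 went to 1116, 842, 531 and 665 without Asxl1-/-Jak2V617F 1 or 2, WT 2 or WT 3, with a highest count of 3493. A lone Asxl1-/- library was assumed to vary like the other groups. Samples share only a replicate number (correlation of deviations for equal numbers -0.199 to 0.174): with a replicate block the counts called were 7099 (7209 without it) in Asxl1-/-Jak2V617F against Jak2V617F, 8677 (8706) in Jak2V617F against WT, 3402 in Asxl1-/- against WT and 2466 in Asxl1-/-Jak2V617F against WT, no call of the 4 genes changed, and those of Rdh13 in the first (adjusted p = 0.0521 by edgeR) and Hes5 in the second (0.0548) were lost. Of 37 other named genes called in Asxl1-/-Jak2V617F against Jak2V617F, 5 (Notch2, Klra2, Heyl, Rdh10 and Rdh13) lost the call under some alternative. Oas2 passed there with the compared groups alone (1.95, adjusted p = 0.0357 by edgeR). In Jak2V617F against WT, Rbpj ran from -0.11 to 0.027 with a library left out, the latter without Jak2V617F 2, and Rara from -0.47 to 0.13, the latter without WT 2, neither passing. Alternatives for list counts and for these other genes were added after seeing the data. Counts of 0 to 7 per library outside Jak2V617F limit what can be said of Stra6l and Klri1 there.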
